A study of Homo sapiens with 3 samples.

Results

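The genes described here are 35 markers and effectors of epithelial-mesenchymal transition (EMT), taken as a named list of EMT transcription factors, mesenchymal cadherins, collagens and other genes of the mesenchymal matrix and cytoskeleton. VIM is not in the list. Of the 35 genes, 34 had at least 1 probe on the array, 43 probes in all, out of 17552 genes with 20228 named probes. TWIST2 had no probe under its current or an older symbol. Total RNA came from HSC-3, a cell line of a human tongue cancer, and was measured on 1-colour arrays in 3 conditions with 1 array each. The shDKK3 cells carried a lentiviral GFP vector with a short hairpin RNA (shRNA) that targets DKK3, a secreted member of the dickkopf family of Wnt modulators. The shScr cells carried a non-effective scrambled shRNA in a lentiviral GFP vector. The parental cells carried no shRNA. Both shRNA lines were grown with puromycin, which the growth protocol does not name for the parental cells, and the labels do not say whether a line was 1 clone. With 1 array per condition every difference lies between these arrays and has no replicate check, and no p-value was computed.

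In EMT, epithelial cells lose cell-cell junctions and take on a migratory, matrix-producing state. The zinc finger repressors of the SNAI and ZEB families and the basic helix-loop-helix TWIST factors bind E-boxes in epithelial genes such as CDH1 and repress them. Downstream markers include the switch to CDH2, fibronectin, fibrillar collagens and the enzymes that cross-link them. Squamous carcinoma cells often carry some of these features without a full transition, while several of the matrix genes are mainly products of fibroblasts.

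A probe was taken as detected when it lay more than 2 SD above the mean of the blank spots, and 78.5% to 81.3% of all gene probes were detected on an array. Intensities are given first as the authors' deposited values, which are above the blanks and scaled so that the median of each array is 25. DKK3 itself was 170 in shDKK3 cells, 226 in shScr cells and 309 in parental cells. Its log2 difference after the normalisation described below was -0.39 against shScr and -0.71 against parental. For shScr minus parental it was -0.32, so the difference to shScr was close in size to that between the controls. All 16 measured markers of squamous epithelial cells were detected on every array. Of 11 fibroblast and pericyte markers that are not in the EMT list, 6 were detected on every array, and PDGFRA, MYH11, DPT and ABCA8 had no deposited value on any. The endothelial marker TEK and the leukocyte marker PTPRC also had none. The summed deposited intensity of the fibroblast and pericyte markers was 691 in shDKK3 cells, 389 in shScr cells and 482 in parental cells. The other lists were also highest in shDKK3 cells. The squamous markers summed to 66893 in shDKK3 cells, 26757 in shScr cells and 25188 in parental cells. The endothelial ones summed to 168, 116 and 129.6, and the leukocyte ones to 249.8, 117 and 158, in the same order. The squamous markers did not all move the same way: in that order KRT14 read 14815, 3779 and 2937, while EPCAM read 648, 1671 and 1927. After the normalisation described below, 3 of 16 squamous markers were at least 2-fold higher than shScr and 1, EPCAM, lower. Against parental, 5 were higher and 1, EPCAM, lower. The shares of all genes were 2.97% and 4.49% against shScr, and 0.864% and 3.04% against parental. In the deposited values the median log2 difference of all genes compared was 0.30 for shDKK3 against shScr and 0.097 against parental. The sums are not corrected for that general shift. The part of the marker lists in the differences below was not tested.

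Most of the EMT list was dim or not detected in these cells. Of 34 measured genes, 20 (58.8%) were detected on all 3 arrays, 4 on some arrays and 10 on none, against 79.9% of all genes detected on all 3 arrays and 13.6% on none. The 10 genes below the limit on every array were SNAI1, ZEB1, PRRX1, CDH11, COL1A2, COL5A2, COL6A3, POSTN, LUM and THY1. Their deposited values were missing or at most 1.7 on every array. Among the detected genes, the transcription factor SNAI2 and the matrix glycoproteins SPARC, TGFBI, FN1 and THBS1 stood well above the blanks on each array. In a bulk sample, fewer cells of a kind and less RNA per cell cannot be told apart.

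**Figure D1:**
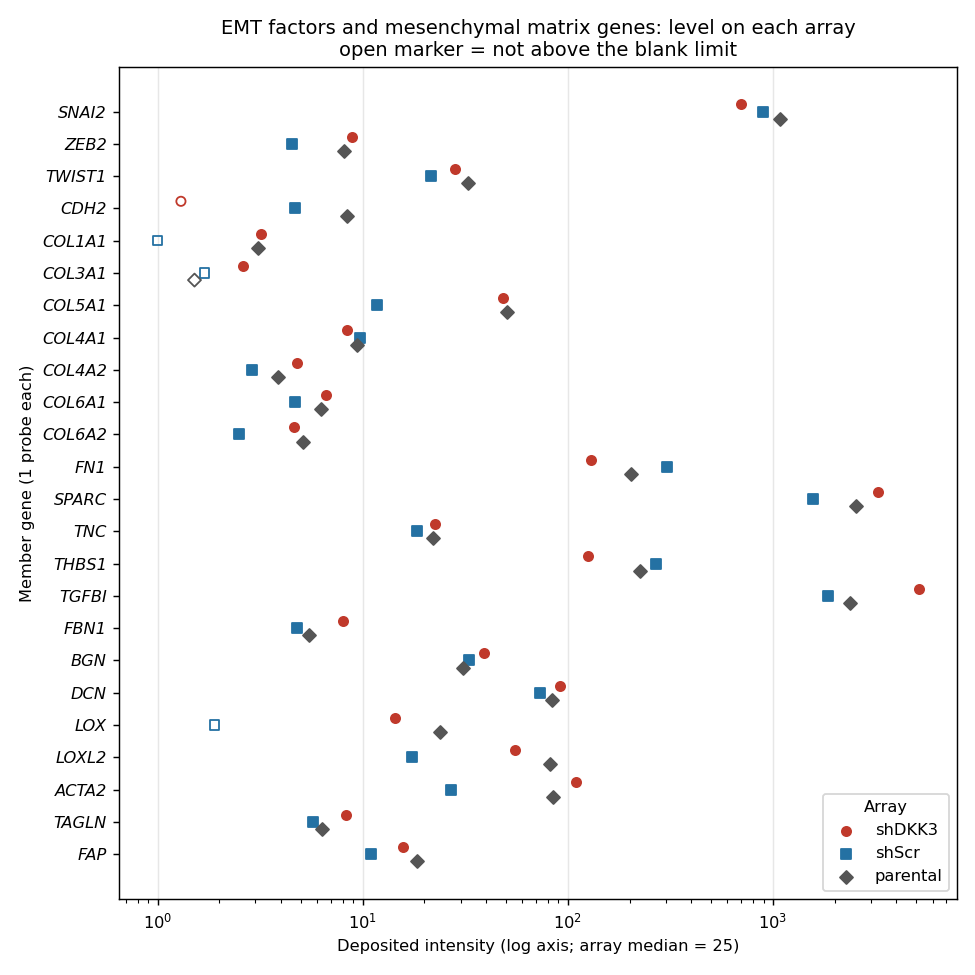
Deposited intensity (log axis) of the 24 member genes detected on at least 1 array, by array. Red circles are shDKK3, blue squares shScr and grey diamonds parental; open markers lie at or below the blank limit, and a missing value is drawn at 1. FN1, THBS1 and SNAI2 are lowest and TGFBI highest in shDKK3 cells. COL5A1, LOX, LOXL2 and ACTA2 are lowest in shScr cells, as are SPARC, TGFBI, DCN and many of the dim genes.

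Differences were taken on the log2 scale after background correction and quantile normalisation, and a gene was counted where the difference was at least 1 (2-fold). Against shScr, 1 of 24 members compared was at least 2-fold higher in shDKK3 cells and 1 was at least 2-fold lower, beside 2.97% and 4.49% of all 15106 genes compared. The higher one was ACTA2 and the lower one FN1. Against parental, 0 of 24 members were at least 2-fold higher and 0 lower, beside 0.864% and 3.04% of 14922 genes. Between the controls, 0 of 23 members were at least 2-fold higher in shScr cells and 1, LOXL2, was lower, beside 0.405% and 0.986% of 14810 genes. With so few members compared, these counts do not set the list apart from the background. The member median was 0.063 against shScr (0.028 for all genes), 0.016 against parental (0.029 for all genes) and -0.062 for shScr minus parental (0.0036 for all genes). The correction adds an offset of 50 to each intensity, which shrinks the differences of dim genes. Against shScr, 15 of 24 members (62.5%) lay within 0.25 of 0, beside 55.2% of all genes.

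To give each difference a scale, it was set beside the robust SD of shScr minus parental among the 500 genes closest to it in mean intensity, called the control spread here. The 2 control arrays also differ by the vector and puromycin, so this spread is not a replicate error. Both shDKK3 comparisons share the shDKK3 array, and both comparisons with the parental array share that array. The shScr array is shared too, with opposite sign in shDKK3 minus shScr and shScr minus parental. A low shScr value alone therefore raises the former and lowers the latter.

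**Figure D2:**
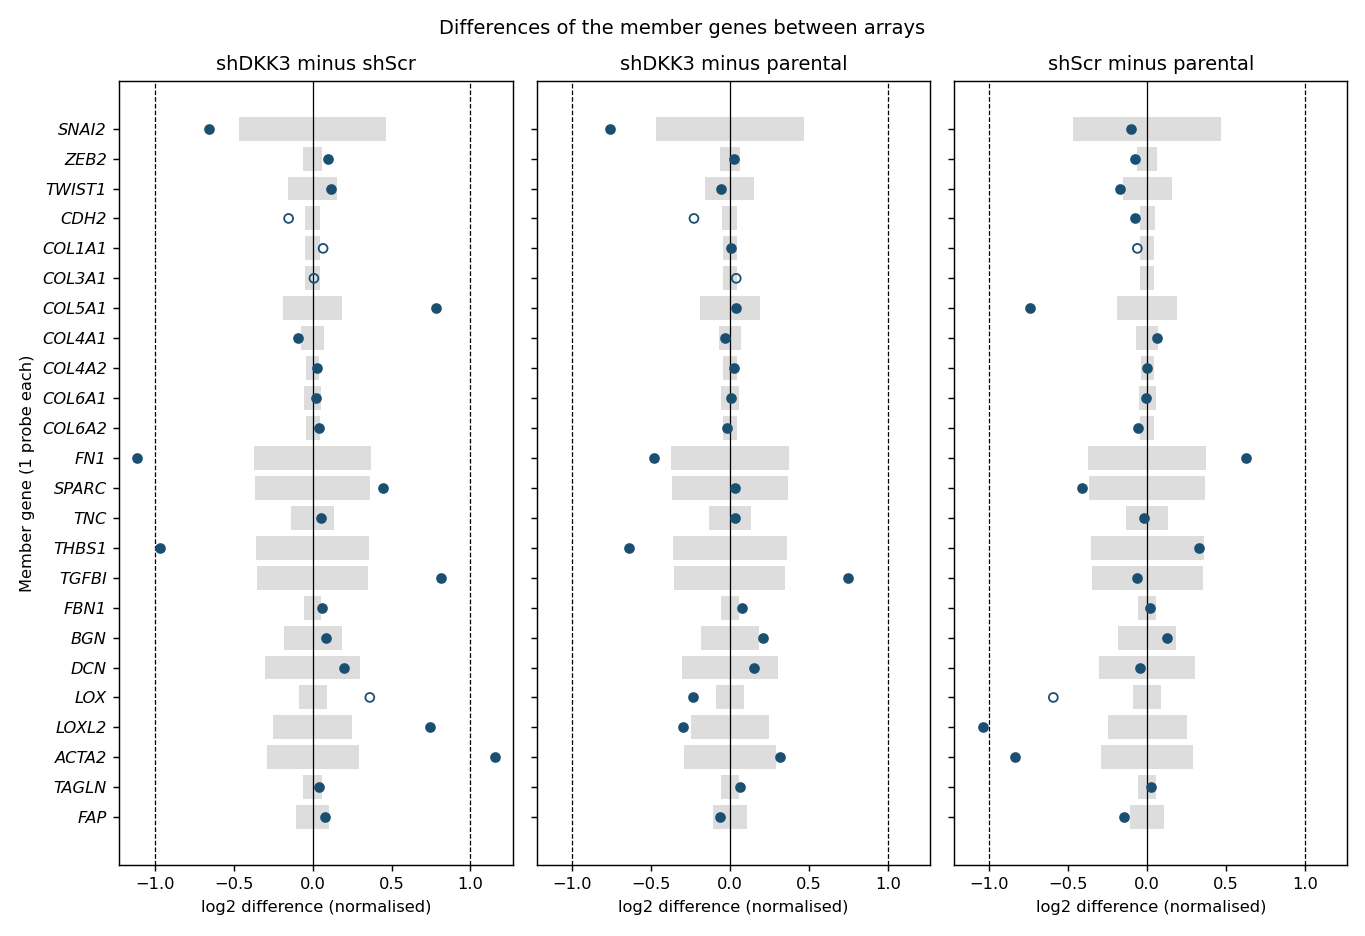
Normalised log2 differences of the same 24 genes for shDKK3 minus shScr, shDKK3 minus parental and shScr minus parental. Grey bars span the control spread on each side of 0, dashed lines mark 2-fold, and open points have 1 side below the blank limit. ACTA2 (1.16) and FN1 (-1.11) pass the lines against shScr and LOXL2 (-1.04) between the controls.

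Among the EMT transcription factors, SNAI2 was the only one with strong signal, and it was lowest in shDKK3 cells. SNAI2 (Slug), a zinc finger repressor that is also expressed in basal keratinocytes, had deposited intensities of 697 in shDKK3 cells, 890 in shScr cells and 1080 in parental cells. After normalisation the log2 difference was -0.66 against shScr and -0.76 against parental, with a control spread of 0.47. The control arrays themselves differed by -0.10. The shDKK3 value thus lay below both controls by more than the control spread, but by less than 2-fold. Its percentile of all genes compared was 9.90 against shScr and 5.88 against parental. In the authors' deposited table the difference to shScr was -0.35, smaller in size than that spread. Over the 14 ways of processing that give a value per gene, the difference ranged from -0.89 to -0.35 against shScr and from -0.88 to -0.63 against parental. These 14 include the processing used above and ways that only change the filter or the blank limit, which cannot move the value of a gene. The mean of a gene's probes cannot move it either, since SNAI2 has 1 probe.

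TWIST1, a basic helix-loop-helix factor of the neural crest and mesoderm, was dim, at 28.3 in shDKK3 cells, 21.5 in shScr cells and 32.7 in parental cells. Its difference was 0.12 against shScr and -0.057 against parental, within the control spread of 0.16. A second TWIST1 probe gave 0.019 and -0.023. ZEB2 was just above the blanks, at 8.9 in shDKK3 cells, 4.5 in shScr cells and 8.13 in parental cells. SNAI1, ZEB1 and the homeobox factor PRRX1 were not above the limit on any array, so nothing can be said of a change in them at this sensitivity.

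N-cadherin and cadherin-11 gave little signal. CDH2 had deposited intensities of 1.3 in shDKK3 cells, 4.7 in shScr cells and 8.37 in parental cells. It was above the limit in both control lines and not in shDKK3 cells, so its difference is a bound. Taking the lowest detected signal of the shDKK3 array as the limit there, CDH2 was at least 1.08-fold lower than shScr and at least 1.14-fold lower than parental. CDH11 was not detected on any array.

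The matrix glycoproteins FN1 and THBS1 were lower, and TGFBI was higher, in shDKK3 cells than in either control, with 1 exception among the alternatives: FN1 lay 0.098 above parental when the second deposited column served as local background. FN1 encodes fibronectin, an integrin-binding matrix glycoprotein. It had deposited intensities of 129.5 in shDKK3 cells, 305.5 in shScr cells and 204 in parental cells. The shDKK3 array was the lowest of the 3 and the shScr array the highest. The normalised difference was -1.11 against shScr (percentile 3.51 of all genes compared) and -0.48 against parental (percentile 12.0), with a control spread of 0.37. In the same gene shScr was 0.63 above parental, so part of the difference to shScr lies between the control arrays. In that alternative FN1 was at -0.50 against shScr.

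THBS1, thrombospondin-1, a matricellular protein that can activate latent TGF-beta, followed the same order of arrays. Its deposited intensities were 126 in shDKK3 cells, 269.0 in shScr cells and 225 in parental cells. After normalisation it was at -0.97 against shScr (percentile 4.89) and -0.64 against parental (percentile 8.14), with a control spread of 0.36 and a difference of 0.33 for shScr minus parental. It missed 2-fold by a small margin and passed it in some alternatives. Over the 14 ways of processing the difference to shScr ranged from -1.36 to -0.50 and that to parental from -0.88 to -0.23. As for SNAI2, some of these ways could not move the value.

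TGFBI, a TGF-beta-induced matrix protein that binds integrins and collagens, had the opposite direction. Its brighter probe had deposited intensities of 5176 in shDKK3 cells, 1853 in shScr cells and 2375 in parental cells. The second probe read 974 in shDKK3 cells, 329 in shScr cells and 428.5 in parental cells, so both probes placed the shDKK3 array highest. The normalised difference of the brighter probe was 0.81 against shScr and 0.75 against parental, with a control spread of 0.35 and -0.067 between the controls. The second probe gave 1.19 against shScr and 0.94 against parental. In the deposited values the brighter probe was 2.79 times as bright as in shScr cells and 2.18 times as bright as in parental cells. After normalisation these folds were 1.76 and 1.68. The deposited values place shDKK3 higher in general, with an all-gene median log2 difference of 0.30 against shScr and 0.097 against parental.

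SPARC, a collagen-binding matricellular glycoprotein, was bright on all 3 arrays, at 3249.5 in shDKK3 cells, 1570.0 in shScr cells and 2553 in parental cells. The shScr array was the low one. SPARC was 0.45 higher in shDKK3 cells than in shScr cells, against a control spread of 0.37, and 0.035 above parental. Between the controls it was at -0.41. It passed 2-fold against shScr in 2 alternatives, at 1.05 in the authors' deposited table (0.35 above parental) and at 1.09 when the second deposited column served as local background (0.71 above parental).

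The remaining matrix glycoproteins were dim. TNC, tenascin-C, a large anti-adhesive glycoprotein of wounds and tumour stroma, read 22.5 in shDKK3 cells, 18.4 in shScr cells and 22.1 in parental cells with its brighter probe. The second TNC probe read 13.8 in shDKK3 cells, 5.9 in shScr cells and 17.6 in parental cells. Its difference to shScr was 0.19, against 0.051 with the first probe. FBN1, fibrillin-1 of the elastic microfibrils, was at 8 in shDKK3 cells, 4.8 in shScr cells and 5.44 in parental cells. POSTN, periostin, was not detected with either of its probes.

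Start regions are shown for FN1 and ACTA2, the members past 2-fold against shScr, and for the matrix glycoproteins THBS1 and TGFBI, which lay on 1 side of both controls. Each line gives the 250 bases before a RefSeq transcript start (GRCh38.p14), 5′ to 3′ on the gene's strand, in lower case with matches to the motifs named below in capitals. ACTA2 has 2 starts in that table, and the one nearer to the 3′ end of the gene is shown.
FN1 (chr2:215436069-215436318, minus strand): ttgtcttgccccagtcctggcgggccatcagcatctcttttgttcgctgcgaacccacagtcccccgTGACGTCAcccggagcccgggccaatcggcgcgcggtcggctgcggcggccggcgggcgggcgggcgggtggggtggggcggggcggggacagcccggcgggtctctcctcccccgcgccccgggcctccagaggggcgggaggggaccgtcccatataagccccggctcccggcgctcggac
THBS1 (chr15:39580829-39581078, plus strand): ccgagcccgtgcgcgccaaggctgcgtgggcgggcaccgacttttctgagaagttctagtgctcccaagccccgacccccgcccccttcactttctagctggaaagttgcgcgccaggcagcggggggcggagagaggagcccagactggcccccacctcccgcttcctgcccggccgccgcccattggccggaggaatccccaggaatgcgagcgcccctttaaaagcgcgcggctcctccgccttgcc
TGFBI (chr5:136028738-136028987, plus strand): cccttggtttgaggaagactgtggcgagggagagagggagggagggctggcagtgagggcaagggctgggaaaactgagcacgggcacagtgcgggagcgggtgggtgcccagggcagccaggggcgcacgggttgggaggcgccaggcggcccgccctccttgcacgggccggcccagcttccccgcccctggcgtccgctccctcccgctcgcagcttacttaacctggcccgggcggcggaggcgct
ACTA2 (chr10:88952774-88953023, minus strand): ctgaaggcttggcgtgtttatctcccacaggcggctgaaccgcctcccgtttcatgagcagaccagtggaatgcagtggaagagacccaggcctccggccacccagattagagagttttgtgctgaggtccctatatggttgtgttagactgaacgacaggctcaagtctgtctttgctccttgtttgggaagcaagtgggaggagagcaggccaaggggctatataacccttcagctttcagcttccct

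RefSeq start regions were given for 20 of the 35 members, 31 regions in all. The letters CAGGTG on either strand, the E-box bound by SNAI and ZEB factors, occurred in 4 of these 31 regions (2 genes, LOX and ZEB1) and in 17.5% of all 35116 regions of the same length. The cAMP response element TGACGTCA occurred in 1 of 31, that of FN1, where it ended 176 bases before the start, and in 1.65% of all regions. The AP-1 letters TGANTCA occurred in 2 of 31 (6.57% of all). The letters TATAAA, counted on either strand, occurred in 3 of 31 (10.7% of all). The strict form of the CArG box, the element of serum response factor, occurred in 0 of 31 (1.16% of all), and forms with a mismatch were not searched. These are letter matches within the windows and say nothing of binding in these cells.

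The fibrillar collagens, the main tensile fibres of stroma, were near the blanks except for COL5A1. COL5A1, which encodes a regulatory chain of collagen V fibrils, read 48.3 in shDKK3 cells, 11.8 in shScr cells and 50.4 in parental cells. The shScr array was the low one and the other 2 were alike. The normalised difference was 0.78 against shScr and 0.042 against parental, with -0.74 between the controls and a control spread of 0.19. When the second deposited column served as local background it was -0.073 against shScr. COL1A1 read 3.2 in shDKK3 cells and 3.1 in parental cells, with no value in shScr cells. COL3A1 read 2.6 in shDKK3 cells, 1.7 in shScr cells and 1.51 in parental cells, above the limit in shDKK3 cells alone.

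The basement membrane chains COL4A1 and COL4A2 and the microfibrillar chains COL6A1 and COL6A2 were low but detected on all 3 arrays. COL4A1 read 8.4 in shDKK3 cells, 9.7 in shScr cells and 9.42 in parental cells. COL4A2, its neighbour on chromosome 13, read 4.8 in shDKK3 cells, 2.9 in shScr cells and 3.86 in parental cells. After normalisation COL4A1 was at -0.096 against shScr and COL4A2 at 0.031. COL6A1 read 6.6 in shDKK3 cells, 4.7 in shScr cells and 6.26 in parental cells. COL6A2, next to it on chromosome 21, read 4.6 in shDKK3 cells, 2.5 in shScr cells and 5.1 in parental cells. So close to the blanks, a difference in these 4 genes was not detectable with confidence.

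The collagen cross-linking enzymes LOX and LOXL2, amine oxidases that link lysines of collagen and elastin, were lowest in shScr cells. LOXL2 read 55 in shDKK3 cells, 17.3 in shScr cells and 82.3 in parental cells. Its normalised difference was 0.74 against shScr and -0.30 against parental. Between the controls it was at -1.04 (percentile 0.871 of all genes compared), with a control spread of 0.25. LOX read 14.3 in shDKK3 cells, 1.9 in shScr cells and 23.8 in parental cells, and in shScr cells it was not above the blank limit. After the normalisation used here LOX was at least 1.28-fold higher in shDKK3 cells than in shScr cells. It was at least 1.5-fold lower in shScr cells than in parental cells. Against parental, the shDKK3 array was at -0.23 for LOX. When the second deposited column served as local background, LOX was at 0.026 against shScr and -0.0056 against parental, with -0.032 between the controls.

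ACTA2, smooth muscle alpha-actin, a component of the contractile fibres of myofibroblasts, had the same low shScr value. It read 109.8 in shDKK3 cells, 26.9 in shScr cells and 85.1 in parental cells. Against shScr the normalised difference was 1.16 (percentile 98.1), with a control spread of 0.29. Against parental it was 0.32 and between the controls -0.84, so most of the difference to shScr lies between the control arrays. When the second deposited column served as local background the shDKK3 array was at -0.23 against shScr and -0.083 against parental. TAGLN, transgelin, an actin-binding protein of smooth muscle, was near the blanks, at 8.3 in shDKK3 cells, 5.7 in shScr cells and 6.32 in parental cells. A second TAGLN probe was above the limit in shDKK3 cells alone, at 6, and had 1.2 in shScr cells and 1.22 in parental cells.

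**Figure D3:**
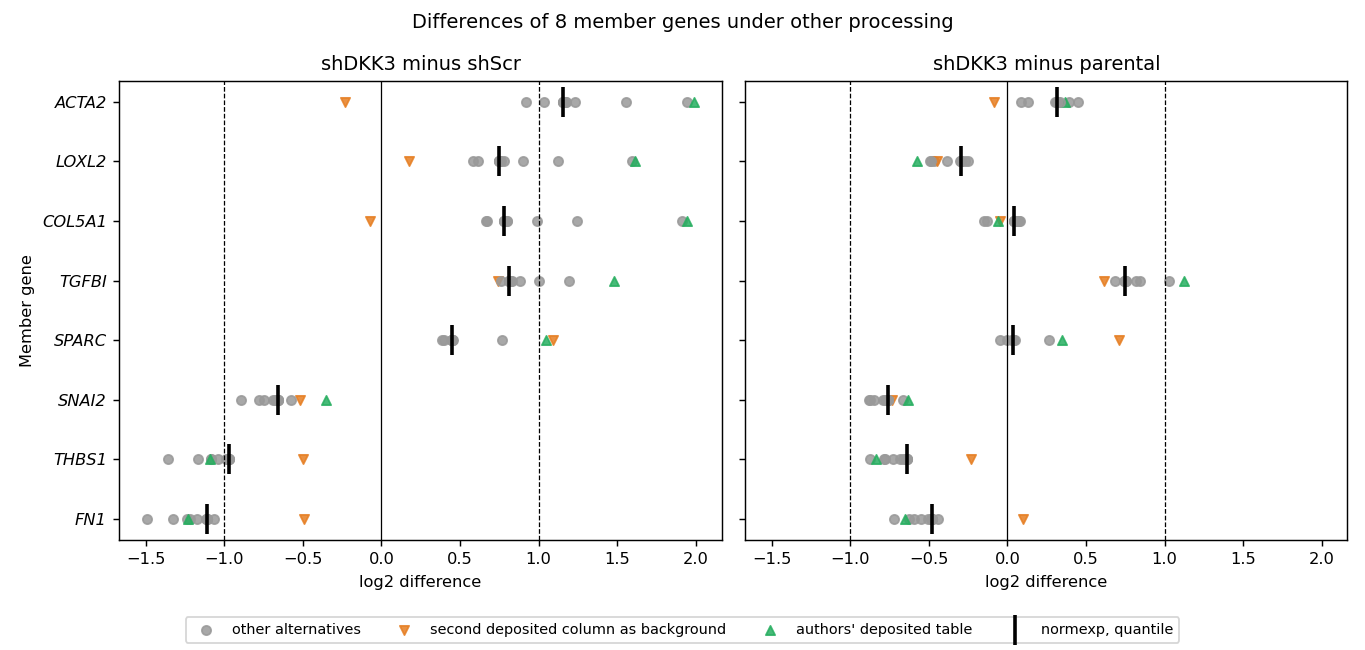
Log2 differences of 8 member genes for shDKK3 minus shScr and shDKK3 minus parental under each way of processing. Black bars are the values given in the text, green triangles the authors' deposited table, orange triangles the second deposited column as local background and grey points the other alternatives. Against shScr, FN1, THBS1, SNAI2, TGFBI, SPARC and LOXL2 keep their direction throughout, while ACTA2 (-0.23) and COL5A1 (-0.073) cross 0 with the second column as background.

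The small leucine-rich proteoglycans and fibroblast surface proteins gave differences within or near the control spread. BGN, biglycan, read 39.1 in shDKK3 cells, 33 in shScr cells and 30.7 in parental cells, with differences of 0.085 and 0.21 and a control spread of 0.18. For DCN, decorin, 2 probes disagreed in whether there was signal. The brighter one read 92 in shDKK3 cells, 72.9 in shScr cells and 83.5 in parental cells, while the other had a value in parental cells alone, 1.28, and was not above the limit on any array. Because the 2 probes disagreed, the identity of the brighter DCN signal is uncertain. LUM, lumican, the neighbour of DCN on chromosome 12, was not detected. FAP, a serine protease of activated fibroblasts, read 15.8 in shDKK3 cells, 11 in shScr cells and 18.5 in parental cells. THY1 was not detected.

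**Figure D4:**
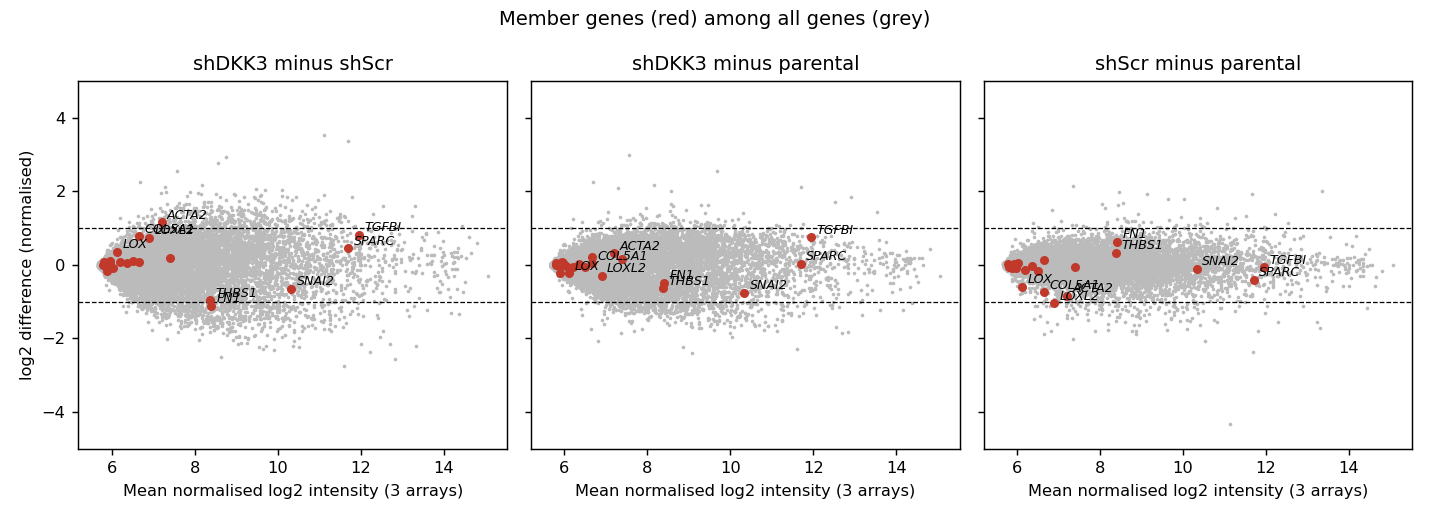
Normalised log2 difference against mean normalised log2 intensity for all genes (grey) and the detected members (red) in the 3 comparisons. Most members sit at the dim left end near 0, and FN1, THBS1, SNAI2, TGFBI, SPARC, ACTA2, LOXL2, COL5A1 and LOX are named; few members lie outside the dashed 2-fold lines.

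The wider EMT and matrix programme was described by 4 further lists. Of 28 EMT regulators, 27 were measured and 25 compared in each comparison. Against shScr 1 was at least 2-fold higher and 0 lower in shDKK3 cells, beside 2.97% and 4.49% of all genes. Against parental 0 were higher and 2 lower, beside 0.864% and 3.04%. FOXC2, a forkhead factor of mesenchyme, read 422 in shDKK3 cells, 150 in shScr cells and 233 in parental cells (1.15 against shScr, 0.70 against parental). ETS1, an ETS family factor, was at -0.93 against shScr and -1.07 against parental. HMGA2, an architectural chromatin protein, read 209 in shDKK3 cells, 164 in shScr cells and 458.5 in parental cells. Against parental it was at -1.01 in shDKK3 cells and at -1.26 in shScr cells, so the parental array was the high one.

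Of 25 measured genes of collagen processing, 23 were compared, and their median was 0.30 against shScr (0.028 for all genes) and 0.16 against parental (0.029 for all genes). In all, 0 were at least 2-fold higher or lower than shScr, beside 2.97% and 4.49% of all genes. Against parental, 0 were at least 2-fold higher and 1 was lower, beside 0.864% and 3.04%. That gene was PLOD2, a lysyl hydroxylase that prepares collagen for cross-linking, at -1.13 (-0.96 against shScr). Of the 33 other collagen chains, 25 were compared, and 0 were at least 2-fold different in any of the 3 comparisons. Between the controls the shares of all genes were 0.405% higher and 0.986% lower. With so few chains compared, these counts do not set them apart from the background. The median of the chains was 0.11 against shScr and 0.023 against parental.

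Among 45 other matrix proteins, 40 were compared, with 3 at least 2-fold higher and 0 lower in shDKK3 cells than in shScr cells (2.97% and 4.49% of all genes), and 1 higher and 1 lower than in parental cells (0.864% and 3.04%). MFAP2, a microfibril-associated glycoprotein, was higher than both controls, at 404 in shDKK3 cells, 140.1 in shScr cells and 165 in parental cells (1.18 and 1.08). EFEMP1, a fibulin, was 1.40 above shScr but 0.10 above parental, since the shScr array was low at 241. FSTL1, a secreted SPARC-related glycoprotein, was at -1.18 against parental and -0.47 against shScr. Between the controls, 4 of 37 genes of this list were at least 2-fold lower in shScr cells, beside 0.986% of all genes, among them LAMB1 (-1.60) and AGRN (-1.29), both basement membrane components.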

How the data were processed

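Total RNA of 3 HSC-3 conditions was measured on 3 arrays, grouped by their shRNA labels. Per the labels' protocols, amplified amino allyl RNA was coupled to a dye and hybridised. The deposited scanner intensity is, per the file headers, the median of each spot at 635 nm joined over 3 gains by fitted lines. The authors' deposited table holds a normalised signal. Set against the scanner values, it equals the spot median less a trimmed mean of the blanks (5% dropped from either end), scaled by 1 number per array, on a linear scale without centring per gene. Its median is 25 on each array, and spots at or below that blank mean plus 2 SD hold no value. How it was normalised, the scanner software and the array design are not given in the sources used here.

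Spot medians were corrected with normexp (limma 3.58.1, R 4.3.3, offset 50, fitted on all spots) and quantile normalised over 24451 gene probes, after 9 probes marked as not good were left out. The procedure was tested on simulated data. Probes were named from the platform annotation and updated through RefSeq symbols. Each gene took the values of its brightest probe on average, and a comparison used it if the brighter of the 2 arrays detected it. For a probe below the limit on 1 side, the bound divides the brighter value by the lowest detected signal of the other array, or by the dim value itself if that is larger. Detection limits were 49.2, 59.1 and 54.3 on the shDKK3, shScr and parental arrays, and the number of arrays limits the precision. The 24 copies of each of 2 positive control spots had an SD of 0.084 to 0.19 (log2) within an array, which measures spot noise alone.

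The members, the lists and the alternatives were chosen with earlier results of these data known. All members are accounted for, and up to 3 genes per further list and comparison are named by the largest difference past 2-fold. Not every gene that this rule allows is described.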

Additional observations from a re-analysis of the deposited data

How the results depend on the processing

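No paired analysis was possible because each condition has 1 array and no test was made. The number of members at least 2-fold different was given above as 1 higher and 1 lower for shDKK3 minus shScr, 0 and 0 for shDKK3 minus parental, and 0 and 1 for shScr minus parental. In that order of comparisons, higher then lower, it was 5 and 3, 0 and 1, 0 and 5 after plain subtraction of the blank mean; 3 and 2, 0 and 0, 0 and 4 with an offset of 16; and 7 and 3, 1 and 1, 0 and 5 in the authors' deposited table. Against shScr, COL5A1, LOXL2 and THBS1 pass 2-fold in all 3 of these. LOX, CDH2 and COL1A1 pass it after plain subtraction and in the authors' values but not with an offset of 16. CDH2 and COL1A1 are close to the blanks, and LOX was not above the blank limit in shScr cells. Log2 differences of the authors' values were taken after setting missing values to 0 and adding 1. COL1A1 has no authors' value in shScr cells, so its pass there rests on that rule. The counts were 1 and 0, 0 and 0, 0 and 0 when the second deposited column served as background, where the 1 member is SPARC (1.09) in place of ACTA2, which turned to -0.23 against shScr; the cause was not tested. They were 0 and 2, 0 and 0, 0 and 1 with scaling to the median, 2 and 2, 1 and 0, 0 and 1 with scaling to the 75th percentile, 1 and 2, 0 and 0, 0 and 1 with cyclic loess, and 2 and 1, 0 and 0, 0 and 1 with the mean of a gene's probes. A threshold of 1.5-fold gave 4 and 3, 1 and 2, 1 and 4, and one of 3-fold gave 0 throughout. Without background correction, without the trend with gene length, with no filter, with detection on both arrays or with the lower blank limit (added after seeing the data), the counts were as given above. Scaling to the 75th percentile moved the median of all genes to 0.36 and that of the members to 0.49 against shScr, so the members lay 0.13 above all genes, and 0.18 above them in the authors' values. The share of lower genes among all those past 2-fold against shScr was 60.2%, against 71.7% after cyclic loess, 84.9% after scaling to the median and 44.2% for the authors' values. Members detected on all 3 arrays numbered 20, and 18 to 23 under the other limits.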
